A study of Mus musculus with 4 samples.

Results

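The genes described here encode the subunits and regulators of the proteasome and the ubiquitin-conjugating (E2) enzymes, as read on 4 microarrays of RNA from mouse intestinal epithelium. The choice was made by symbol, with earlier results of these data known. It took the probe sets with 1 gene symbol that starts with Psma to Psmg and a digit or with Ube2 and a letter. This gave 102 probe sets for 85 of 19937 genes, of which 48 were proteasome genes and 34 were E2 genes. The other 3 matched the letters of the rule but belong to neither family. They were Psmc3ip, which acts in meiotic recombination, Psme3ip1, a partner of the activator Psme3, and Ube2cbp, which binds an E2 enzyme, and they are left out of the counts below. Psme3ip1 was set aside after its values had been seen. Psmc3ip read 5.01 in Msi1, 5.15 in hnRNP, 5.35 in IgG and 3.52 in Input, Psme3ip1 read 7.11, 7.25, 6.85 and 6.71, and Ube2cbp read 3.91, 4.10, 4.13 and 5.39.

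The 4 arrays carried RNA precipitated with an antibody to Msi1, RNA precipitated with an antibody to an hnRNP, RNA precipitated with nonspecific IgG, and input RNA that was not precipitated. All came from adult C57BL/6 mice whose intestine had been crosslinked with ultraviolet light (CLIP). Msi1 is an RNA-binding protein of progenitor cells, and the labels do not say which hnRNP was targeted. Each group was 1 array, hybridized with RNA combined from 2 experiments, so there was no measure of spread, no test was possible, and every difference is a description of these arrays. No genotype or treatment distinguished the groups, and bulk RNA of this kind cannot tell fewer cells of a type from less RNA per cell.

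The proteasome degrades proteins that have been tagged with chains of ubiquitin. Its core is a barrel of alpha rings, which gate the entry, and beta rings, which hold the cutting sites. A regulatory particle caps the barrel, with a base of ATPases that unfold the substrate and a lid that takes off the ubiquitin. An E2 enzyme carries activated ubiquitin on a cysteine and hands it, usually with the help of an E3 ligase, to the substrate. In the gut epithelium, which renews itself continuously, this system turns over cell cycle regulators and damaged proteins.

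Values are log2 signals as deposited, and a difference of 1 log2 unit is 2-fold. An array's floor is the 95th percentile of its olfactory and vomeronasal receptor probe sets, 4.74 for Msi1, 5.17 for hnRNP, 5.26 for IgG and 4.09 for Input. The distributions differed in width, with a standard deviation over all probe sets of 1.38, 1.20, 1.17 and 2.01 on these arrays, and the share of all genes above the floor was 47.8%, 32.9%, 28.1% and 59.1% in the same order. Each of 10 epithelial markers sought was above the floor on the Msi1 and Input arrays, 8 on hnRNP and 7 on IgG. These markers moved the same way as the genes described below. Of the 10, 5 were 2-fold or more higher in Msi1 than in IgG (median 0.96), against 18.6% of all genes compared. Higher than in hnRNP were 7 (median 1.26), against 17.5%, and lower than in Input were 9 (median −2.27), against 38.3%. The markers had a median Input signal of 10.6. Among all genes with an Input signal of 10 or more, 62.3% were higher than in IgG, 63.6% higher than in hnRNP and 95% lower than in Input. Of 5 immune cell markers, 0 were above the floor on Msi1, 1 on hnRNP, 1 on IgG and 4 on Input, led on Input by the T cell gene Cd3e at 6.36. Of 6 markers of stroma and muscle, 5 were above the floor on Msi1, 4 on hnRNP, 4 on IgG and 3 on Input, and of 4 markers of neurons and glia 0, 1, 1 and 1 were. The 1 red blood cell marker found was below the floor of all 4 arrays. The part of these cell types in the results below was not tested.

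Most genes of both families were above the floor in the starting material. On the Msi1 array 38 of 48 proteasome genes and 26 of 34 E2 genes exceeded the floor, against 17 and 18 on hnRNP, 15 and 11 on IgG, and 45 and 29 on Input. The median proteasome signal was 5.59 on Msi1, 4.86 on hnRNP, 4.74 on IgG and 7.10 on Input, and that of E2 genes was 5.86, 5.20, 5.09 and 6.60. Only 7 genes were above the floor on none of the 4 arrays. They were Psma8 and Psmb11, alternative core subunits of testis and thymus, and the E2 genes Ube2d2b, Ube2dnl1, Ube2dnl2, Ube2u and Ube2w.

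Msi1 was compared with IgG because the study ranked transcripts by their enrichment over that control. Some core, ATPase base, lid and E2 transcripts were brighter in Msi1, and no member that was compared was 2-fold dimmer. Of 39 proteasome genes above the floor on either array, 17 (43.6%) had a deposited value higher in Msi1 by 2-fold or more and 0 were lower, and of 27 E2 genes 10 (37.0%) were higher and 0 lower. Over all genes compared, 18.6% were at least 2-fold higher and 6.91% lower. The median difference was 0.81 for proteasome genes and 0.68 for E2 genes, against 0.06 for all genes. Of these 17 and 10 genes, 16 and 8 were not above the floor in IgG. Counted from the IgG floor instead, 7 proteasome genes and 7 E2 genes stayed past 2-fold, against 10.8% of all genes, and the medians were 0.21 and 0.67, against −0.20. These counts were helped by the way genes entered: 24 of the 39 proteasome genes and 16 of the 27 E2 genes were above the floor on Msi1 alone and 1 of each family on IgG alone. Counted without any floor, the same 17 of 48 proteasome genes and the same 10 of 34 E2 genes were higher, against 9.99% of all genes. With genes above the floor on both arrays, 1 of 14 proteasome genes and 2 of 10 E2 genes were higher, against 7.87% of all genes, and the proteasome median was −0.18.

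**Figure D1:**
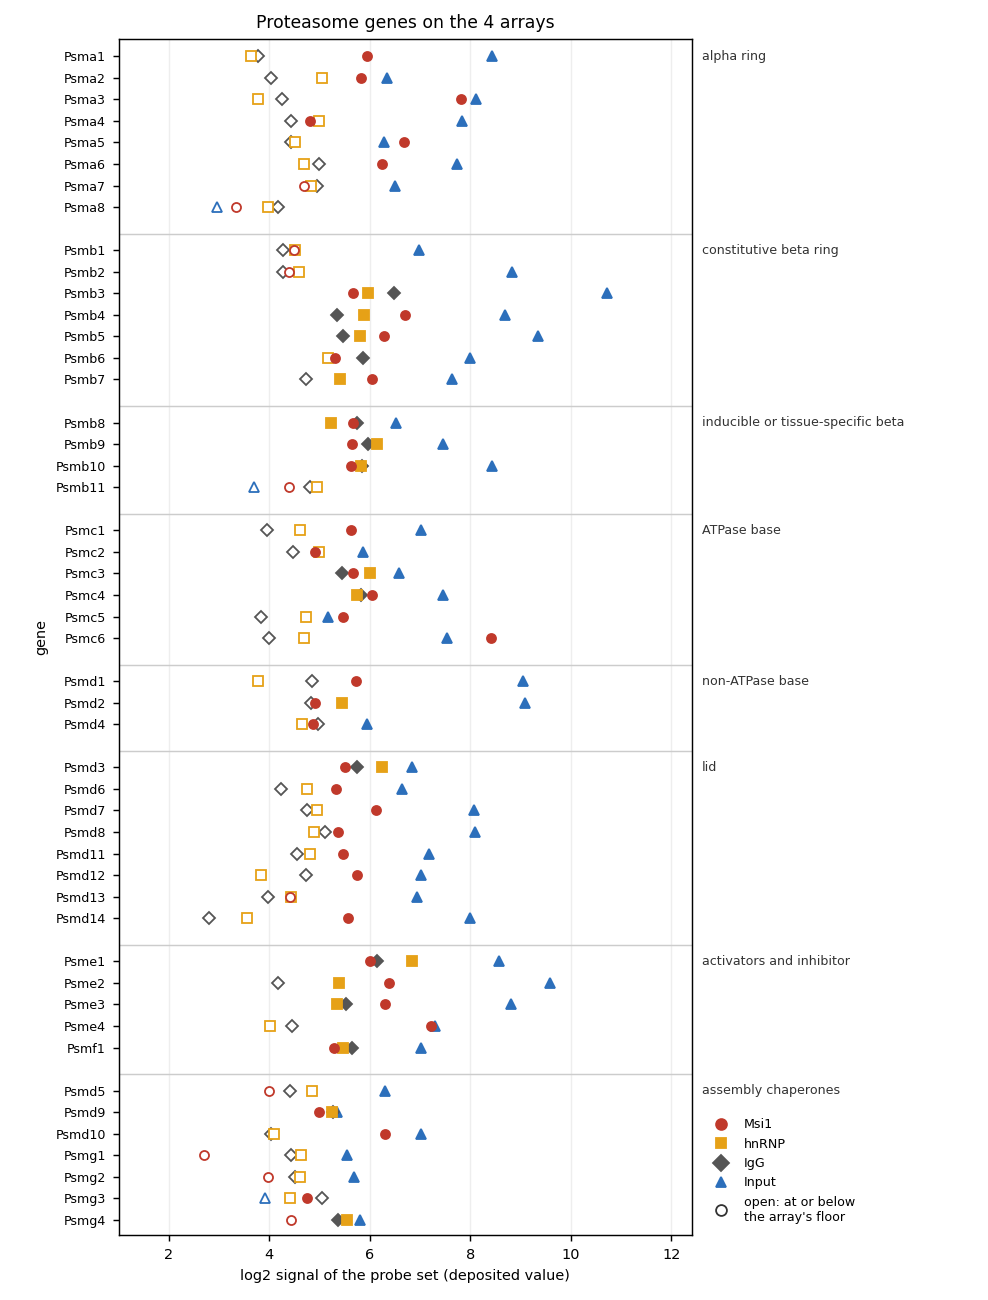
Log2 signal (horizontal axis) of the 48 proteasome genes (rows, grouped by role) on the Msi1, hnRNP, IgG and Input arrays, 1 array each, with open symbols at or below that array's floor. Input is the brightest array for most genes, and Psmc6 at 8.41 in Msi1 and 7.54 in Input is an exception.

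In the alpha ring, 5 of the 6 genes compared were past 2-fold, of which 2 stayed so from the floor, Psma3 and Psma5. Psma3 read 7.81 in Msi1, 3.78 in hnRNP, 4.25 in IgG and 8.12 in Input, so Msi1 and Input were both bright and the other 2 arrays were below their floors. It was at least 5.82-fold above IgG in Msi1, with a deposited difference of 3.55. On another probe set, described below, Psma3 read 7.73 in Msi1 and only 5.17 in Input. Psma5 read 6.67 in Msi1, 4.52 in hnRNP, 4.44 in IgG and 6.29 in Input, and was at least 2.65-fold higher than IgG. That is the probe set used. On another, described below, Psma5 read 5.04 in Msi1 and 4.26 in IgG, a difference of 0.78. Psma1 differed from IgG by 2.16, Psma2 by 1.77 and Psma6 by 1.26. Since their IgG values lay below the floor, these folds are bounded only at 1.60, 1.47 and 1.97. Psma4 was the lowest of those compared, with 4.81 in Msi1 and 4.44 in IgG (0.38). Psma7 read 4.69 in Msi1, 4.82 in hnRNP and 4.95 in IgG, below all 3 floors, and 6.49 in Input.

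The constitutive beta ring, which carries the cutting sites, had 2 of 5 genes higher. Psmb4, a structural subunit, read 6.69 in Msi1, 5.88 in hnRNP, 5.34 in IgG and 8.69 in Input. It was 2.54-fold higher in Msi1 and was the only proteasome gene called higher whose IgG value was above the floor. Psmb7, with trypsin-like activity, differed by 1.32 (at least 1.72-fold). The chymotrypsin-like subunit Psmb5 differed by 0.81, the caspase-like subunit Psmb6 by −0.58 and Psmb3 by −0.81. Psmb1 and Psmb2 were not above the floor on Msi1 or IgG although they read 6.98 and 8.82 in Input.

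None of the inducible beta subunits that replace the cutting sites in immune cells and after interferon was past 2-fold. Psmb8 read 5.66 in Msi1, 5.23 in hnRNP, 5.75 in IgG and 6.51 in Input. Psmb9 read 5.64, 6.14, 5.96 and 7.46 on these arrays, and Psmb10 read 5.62, 5.83, 5.84 and 8.42. All 3 were above the floor on every array and differed between Msi1 and IgG by −0.09, −0.31 and −0.23.

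In the ATPase base, Psmc6 was the 1 gene past 2-fold from the floor. It read 8.41 in Msi1, 4.68 in hnRNP, 3.99 in IgG and 7.54 in Input, so Msi1 was its brightest array. It was at least 8.84-fold above IgG in Msi1, with a deposited difference of 4.42. Psmc1 and Psmc5 differed by 1.65 and 1.63, with bounds of 1.28-fold and 1.15-fold. Psmc2 differed by 0.42 and Psmc3 and Psmc4 by 0.21 each. Of the non-ATPase base genes, 0 of 3 were past 2-fold. The scaffold gene Psmd1 differed by 0.88, the scaffold gene Psmd2 by 0.07 and the ubiquitin receptor gene Psmd4 by −0.10.

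In the lid, 4 of 7 genes compared had deposited differences past 2-fold, but IgG lay below the floor for all 4 and 0 of them stayed past 2-fold from the floor. Psmd14, the deubiquitinase of the lid, read 5.56 in Msi1, 3.56 in hnRNP, 2.80 in IgG and 7.99 in Input. Its deposited difference from IgG was 2.76, but its IgG value lay far below the floor and the bound was 1.23-fold. Psmd7, the partner of Psmd14, differed by 1.38 (at least 1.81-fold), Psmd6 by 1.09 (at least 1.04-fold) and Psmd12 by 1.02 (at least 1.40-fold). Psmd11 was just under the threshold at 0.92. Psmd8 differed by 0.26 and Psmd3 was lowest at −0.23, while Psmd13 was below both floors.

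The activators open the barrel without needing ubiquitin, and they split. Psme4, a single-chain activator, read 7.21 in Msi1, 4.01 in hnRNP, 4.45 in IgG and 7.30 in Input, and was at least 3.84-fold above IgG in Msi1 (2.75). Psme2 read 6.38 in Msi1, 5.38 in hnRNP, 4.18 in IgG and 9.59 in Input, and was at least 2.17-fold higher (2.21). A probe set shared by Psme2b and Psme2, which was not used, read 5.33 in Msi1, 5.13 in hnRNP, 5.5 in IgG and 7.6 in Input. Its difference between Msi1 and IgG was −0.17. Psme1, which forms a ring with Psme2, read 6.01, 6.83, 6.14 and 8.57 on these arrays and differed from IgG by −0.14. Psme3 differed by 0.78 and the inhibitor gene Psmf1 was lowest at −0.34.

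Among the assembly chaperones, which are not part of the finished particle, 1 of 4 genes compared was higher. Psmd10, a chaperone of the base also known as gankyrin, read 6.31 in Msi1, 4.10 in hnRNP, 4.03 in IgG and 7.01 in Input, and was at least 2.06-fold brighter in Msi1 (2.27). Psmd9 and Psmg3 both differed by −0.28 and Psmg4 was lowest at −0.92. Psmg1 read 2.69 in Msi1 and 4.44 in IgG, both below the floors, as did the values of Psmg2 and Psmd5.

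**Figure D2:**
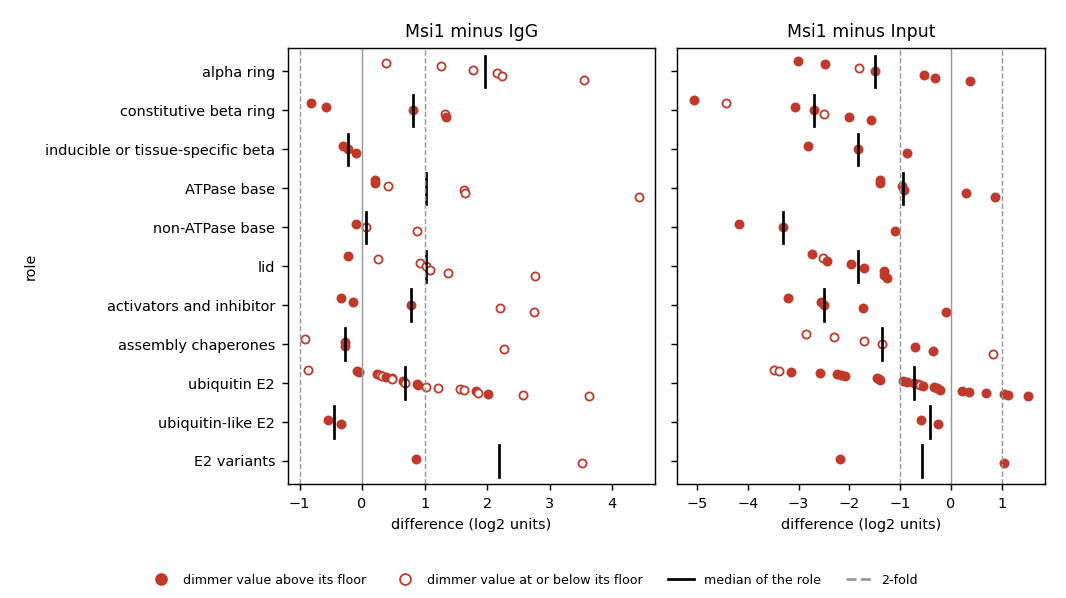
Difference in log2 signal between Msi1 and IgG (left) and between Msi1 and Input (right) for each gene above the floor on either array, by role, with the median of the role as a bar and open symbols where the dimmer value was at or below its floor. The alpha ring has a median of 1.97 over IgG, and the constitutive beta ring has a median of 0.81 over IgG and −2.70 against Input.

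Of the E2 enzymes for ubiquitin, 9 of 23 compared were past 2-fold over IgG. Ube2n, which builds chains used in signalling and DNA repair, read 7.97 in Msi1, 4.65 in hnRNP, 4.33 in IgG and 6.93 in Input. It was at least 6.50-fold above IgG in Msi1 (3.63). Its obligate partner Ube2v2, a variant without the active cysteine, read 7.69 in Msi1, 2.71 in hnRNP, 4.17 in IgG and 6.65 in Input. It was at least 5.36-fold higher (3.52). Both partners were thus brightest in Msi1 on the probe sets used. On another probe set, described below, Ube2n read 6.16 in both Msi1 and Input and differed from IgG by 1.25. Ube2v1, the other partner of Ube2n, read 6.22, 5.10, 5.35 and 8.40 on these arrays and differed from IgG by 0.87.

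Members of the Ube2d group, which serve many E3 ligases, were higher as well. Ube2d2a read 8.47 in Msi1, 5.65 in hnRNP, 6.46 in IgG and 6.95 in Input, with every array above its floor. It was 4.02-fold higher in Msi1 than in IgG (2.01). Ube2d3 read 7.40 in Msi1, 5.20 in hnRNP, 5.59 in IgG and 10.54 in Input and was 3.53-fold higher than IgG (1.82), also above all floors. Ube2d1 differed by 0.88. Between Msi1 and IgG, Ube2d2a and Ube2d3 were the 2 E2 genes past 2-fold with both values above the floor.

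Ube2k, an E2 that extends chains on its own, read 6.95 in Msi1, 4.88 in hnRNP, 4.36 in IgG and 7.67 in Input, and was at least 3.21-fold above IgG in Msi1 (2.58). Ube2j1, an E2 of the endoplasmic reticulum that acts in the disposal of misfolded proteins, read 6.83, 5.56, 4.97 and 9.40 and was at least 2.95-fold higher (1.86). Ube2e1 differed by 1.63 (at least 1.92-fold). The remaining 3 of the 9, Ube2r2 (1.56, at least 2.31-fold), Ube2q1 (1.21, at least 1.84-fold) and Ube2s (1.03, at least 1.89-fold), are named although the rule for naming took 6 of a role, and Ube2s also because its probe sets disagreed. Ube2s and Ube2c are the E2 enzymes of the anaphase-promoting complex. Ube2c was the lowest of the E2 genes, with 4.46 in Msi1, below the floor, 5.32 in hnRNP, 5.34 in IgG and 7.84 in Input (−0.87 against IgG). Ube2b, an E2 of DNA damage tolerance, read 8.34 in Msi1, 6.62 in hnRNP, 7.43 in IgG and 8.66 in Input, above every floor, and was just under the threshold at 0.90.

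The E2 enzymes for ubiquitin-like proteins were not past 2-fold. Ube2f, which transfers NEDD8, differed by −0.34, and Ube2l6, which transfers ISG15, by −0.55.

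**Figure D3:**
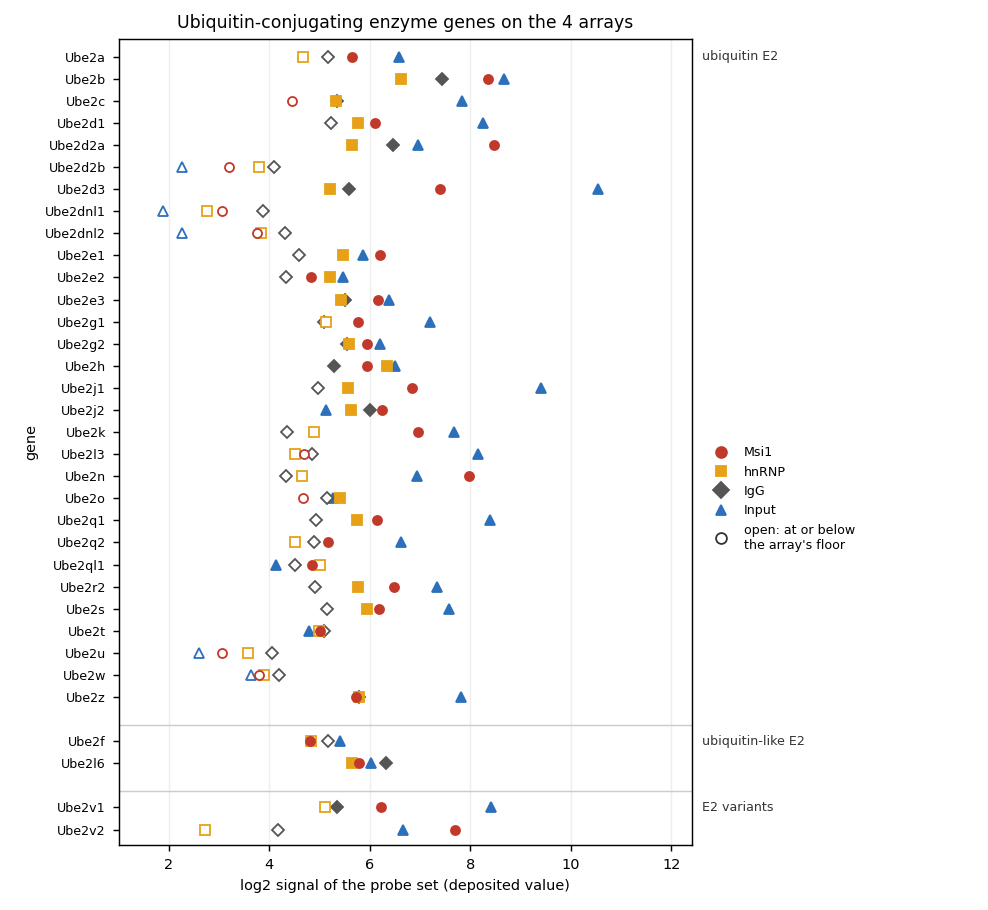
Log2 signal (horizontal axis) of the 34 E2 genes (rows, grouped by role) on the Msi1, hnRNP, IgG and Input arrays, 1 array each, with open symbols at or below that array's floor. For Ube2d2a, Ube2n and Ube2v2 the Msi1 symbol, at 8.47, 7.97 and 7.69, lies more than 1 unit to the right of the other 3.

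Over all genes, the share higher in Msi1 than in IgG grew with the signal of the probe set on Input. The families had too few genes at each signal to show whether their shares did. Among genes with an Input signal of 6 to 8, 11 of 20 proteasome genes (55.0%) and 6 of 15 E2 genes (40.0%) were past 2-fold, against 27.4% of all genes. Among genes with an Input signal of 8 to 10, 5 of 12 proteasome genes (41.7%) and 2 of 5 E2 genes (40.0%) were, against 47.5% of all genes. Below 6 and above the Input floor, 1 of 5 and 1 of 6 were, against 6.58%. At 10 or more there was 1 gene of each family, and the E2 gene was higher. In deposited values the members thus exceeded the share of all genes at 6 to 8 and not at 8 to 10. At 6 to 8, every proteasome gene called higher had an IgG value below the floor. From that floor only Psma5, Psmc6, Psme4 and Psmd10 of them stayed past 2-fold, and of the E2 genes all but Ube2s did. The share of all genes counted from the floor was not calculated by Input signal. Below 6 the excess rested on 1 gene of each family, Psmc5 (at least 1.15-fold) and Ube2e1 (at least 1.92-fold). Neither was past 2-fold from the IgG floor. Whether the Input signal accounts for the excess over IgG was not tested.

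**Figure D4:**
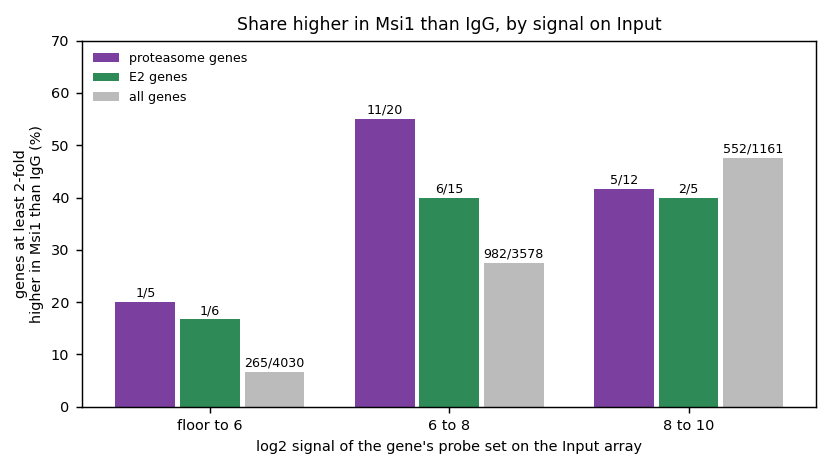
Percentage of genes at least 2-fold above IgG in Msi1 (vertical axis) for proteasome genes, E2 genes and all genes, by the log2 signal of their probe set on Input, with the number higher over the number compared above each bar. At 6 to 8 the proteasome share is 55.0% and that of all genes 27.4%, and at 8 to 10 the shares are 41.7% and 47.5%. Folds are those of the deposited values, not counted from the floor.

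Against the hnRNP precipitation, which shares the Msi1 array with the comparison above, 13 of 39 proteasome genes (33.3%) had deposited values higher in Msi1 by 2-fold or more and 1 was lower. Of 28 E2 genes 8 (28.6%) were higher and 0 lower. Over all genes, 17.5% were higher and 7.79% lower, and the medians were 0.58 for proteasome genes, 0.63 for E2 genes and −0.02 for all genes. The hnRNP value was below its floor for 12 of the 13 and 4 of the 8, and from the floor 7 and 8 stayed past 2-fold, against 10.9% of all genes. With genes above both floors, 1 of 16 proteasome genes and 4 of 16 E2 genes were higher, against 6.91% of all genes, and the proteasome median was −0.20. Of the 39 and 28 genes compared, 22 and 10 were above the floor on Msi1 alone and 1 and 2 on hnRNP alone. At an Input signal of 6 to 8, 40% of proteasome and 26.7% of E2 genes were higher, against 26% of all genes. At 8 to 10, 41.7% and 60% were, against 46.7%. Between the Input floor and 6, 0 of 5 and 0 of 7 were, against 5.78%.

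The largest differences from hnRNP were in these genes. Psma3 differed by 4.02 (at least 6.23-fold), Psmc6 by 3.73 (at least 9.46-fold), Psme4 by 3.19 (at least 4.11-fold) and Psma1 by 2.30 (at least 1.71-fold). Ube2v2 differed by 4.98 (at least 5.74-fold), Ube2n by 3.31 (at least 6.96-fold), Ube2d2a by 2.82 (7.08-fold) and Ube2d3 by 2.21 (4.61-fold). The constitutive beta ring had 0 of 5 genes past 2-fold here. At the other end, the chaperone gene Psmg4 was the 1 gene called lower (−1.09), and it read 4.44 in Msi1, below the floor, against 5.54 in hnRNP. Psme1 differed by −0.83, Psmd3 by −0.74, Ube2c by −0.86, Ube2o, a large enzyme that joins E2 and E3 functions, by −0.74, and Ube2h by −0.40.

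Msi1 was compared with Input to set the precipitated RNA against its starting material, and here the families differed in their values. Of 46 proteasome genes 34 (73.9%) were at least 2-fold lower in Msi1 and 0 higher, with a median of −1.72. Of 29 E2 genes 11 (37.9%) were lower and 4 (13.8%) higher, with a median of −0.64. Over all genes, 38.3% were lower and 11.8% higher, with a median of −0.57. Among genes with an Input signal of 6 to 8, 70.8% of 24 proteasome genes and 33.3% of 15 E2 genes were lower, against 68.2% of all genes. At 8 to 10, 92.3% of 13 and 83.3% of 6 were lower, against 87.2%. Between the Input floor and 6, 4 of 7 proteasome genes (57.1%) and 0 of 7 E2 genes were lower, against 12.1%. The proteasome share was thus near that of all genes at 6 to 10 and above it below 6. The 4 genes lower below 6 were Psmd4, Psmg1, Psmg2 and Psmg4. In Msi1 the 3 Psmg genes were below the floor, so Psmg1 is bounded at 1.75-fold, Psmg2 at 1.94-fold and Psmg4 at 2.09-fold. Of the 34 and 11 genes called lower, 8 and 2 were below the Msi1 floor. From the floor 32 and 11 stayed past 2-fold, against 34.9% of all genes. The proteasome median stayed negative with each scaling (−0.43 with lowess centring and −0.58 with quantile normalization), whereas the E2 median was −0.01 with quantile normalization and 0.24 with lowess centring.

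In the lid 8 of 8 genes, in the constitutive beta ring 7 of 7 and in the non-ATPase base 3 of 3 were at least 2-fold lower in Msi1 than in Input. Over all genes 38.3% were, with 68.2% at an Input signal of 6 to 8 and 87.2% at 8 to 10. The lid genes read 6.63 to 8.09 in Input and the constitutive beta genes 6.98 to 10.72. These 2 roles were also lower than Input on the other arrays, with 8 of 8 and 7 of 7 in IgG and 7 of 8 and 7 of 7 in hnRNP. Psmb3 differed by −5.06, with 5.66 in Msi1 and 10.72 in Input, and was 33.3-fold lower. Psmb2 was at least 16.9-fold lower (−4.43) and Psmd2 18.1-fold (−4.18). The ATPase base had 2 of 6 genes lower and held the highest value, Psmc6 at 0.87. The next were Psmg3 (0.84), which was below the floor in Input, Psma5 (0.38) and Psmc5 (0.30). The E2 genes higher in Msi1 were Ube2d2a (1.52, 2.86-fold), Ube2j2, an endoplasmic reticulum E2 (1.13, 2.19-fold), Ube2n and Ube2v2 (1.04 each, 2.06-fold). The lowest were Ube2l3 at −3.48, Ube2c at −3.38 and Ube2d3 at −3.14. On other probe sets Ube2l3 differed from Input by −1.24 and Ube2d3 by −1.05 and 0.31.

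Only Ube2d2a, Ube2n and Ube2v2 were at least 2-fold brighter in Msi1 than on each of the other 3 arrays, 3 of the 75 members above the floor on any array (4%), against 0.942% of all genes. For Ube2n and Ube2v2 the excess over Input was just past the threshold. This holds for the probe sets used. Each of the 3 genes had another probe set that was not 2-fold brighter in Msi1 than in Input, as described below.

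Between hnRNP and IgG the share of members past 2-fold was near that of all genes. Of 18 proteasome genes 1 (5.56%) was at least 2-fold higher in hnRNP and 0 lower, and of 19 E2 genes 1 (5.26%) was higher and 0 lower, against 6.26% higher and 4.51% lower over all genes. Psme2 was the proteasome gene (1.20, at least 1.08-fold) and Ube2h the E2 gene, with 6.34 in hnRNP and 5.28 in IgG (1.06, 2.09-fold). Medians were 0.18 for proteasome genes, 0.04 for E2 genes and 0.08 for all genes. The next highest were Psme1 (0.69), Psmb7 (0.68) and Psmd2 (0.61), and Ube2e1 (0.89), Ube2e2 (0.85) and Ube2r2 (0.85). The lowest were Psmb6 (−0.71), Psmb8 (−0.52) and Psmb3 (−0.51), and Ube2d2a (−0.82), Ube2b (−0.82) and Ube2l6 (−0.67). No alpha ring gene was above the floor on either array. Against Input, 41 of 45 proteasome genes and 20 of 29 E2 genes were at least 2-fold lower in IgG, against 44.7% of all genes, and 38 of 45 and 18 of 29 were lower in hnRNP, against 43.3%. The IgG value was not above its floor for 29 of the 41 and 14 of the 20. At an Input signal of 6 to 8, 95.8% of proteasome and 73.3% of E2 genes were lower in IgG, against 81.2% of all genes. In hnRNP 91.7% and 73.3% were, against 80.1%. At 8 to 10 the shares were 100% for both families on both arrays, against 99% in IgG and 98.4% in hnRNP.

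Several members had more than 1 probe set, and these did not always read alike. Of 14 such members, 6 had probe sets on different sides of the 2-fold line between Msi1 and IgG, namely Psma5, Psmc1, Ube2l3, Ube2q2, Ube2s and Ube2v1. For each gene the probe set that was brightest on average was used. Probe set numbers on this array run along the genome: for 99.6% of probe sets of genes with 1 probe set, at least 6 of the 10 nearest named probe sets belonged to genes on the same chromosome. Each of the 14 members had exactly 1 probe set with such neighbours, and the other 17 lay among genes of other chromosomes. Near-identical copies such as processed pseudogenes are known for many of these genes, and what these 17 probe sets detect was not tested. The used probe set was one of the 17 for 8 members.

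For Ube2l3, Psma5 and Ube2s, the used and the own-chromosome probe set differed on whether the gene was called higher than IgG. For Ube2d3, Psma3 and Ube2n, among others, the choice moved the comparison with Input. Ube2l3, an E2 that works with HECT and RBR ligases, read 4.68 in Msi1, 4.51 in hnRNP, 4.85 in IgG and 8.16 in Input on the probe set used, so the 3 precipitations were below their floors. On the probe set among genes of its own chromosome it read 7.12 in Msi1, 3.37 in hnRNP, 3.21 in IgG and 8.37 in Input, a difference of 3.91 from IgG. Ube2d3 read 9.22 in Msi1, 4.41 in hnRNP, 4.66 in IgG and 8.91 in Input on its own-chromosome probe set, with a difference of 4.56 from IgG and 0.31 from Input. Its 3 probe sets were all past 2-fold over IgG.

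Psma3 read 7.73 in Msi1, 5.20 in hnRNP, 4.51 in IgG and 5.17 in Input on its own-chromosome probe set, and was there at least 2-fold brighter in Msi1 than on each other array, by 2.56 over Input. Ube2n read 6.16 in Msi1, 4.54 in hnRNP, 4.90 in IgG and 6.16 in Input on its own-chromosome probe set, so its excess over Input was not seen there, while its difference from IgG was 1.25. With these probe sets the genes higher in Msi1 than on each other array were Psma3, Ube2d2a and Ube2v2. For Ube2d2a and Ube2v2 the used probe set was already that of their own chromosome. On its other probe set Ube2d2a read 7.58 in Msi1 and 8.59 in Input, a difference of −1.01. The other probe set of Ube2v2 differed from Input by 0.72, under 2-fold.

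Disagreements in other members were also wide. Ube2q2 differed by 0.29 on the probe set used and by −3.70 on another, which read 2.43 in Msi1 and 6.13 in IgG. Ube2v1 differed by −1.0 on its own-chromosome probe set, below the floors, and by 2.61 on another. Ube2s was below the floors in Msi1 and IgG on its own-chromosome probe set, and Psma5 differed by 0.78 on its own. Psmc1 differed by 1.65 on its own and 0.42 on the other. With own-chromosome probe sets throughout, 16 proteasome genes and 10 E2 genes were higher in Msi1 than in IgG, against 18.5% of all genes. These counts are of deposited differences and were not taken from the floor.

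**Figure D5:**
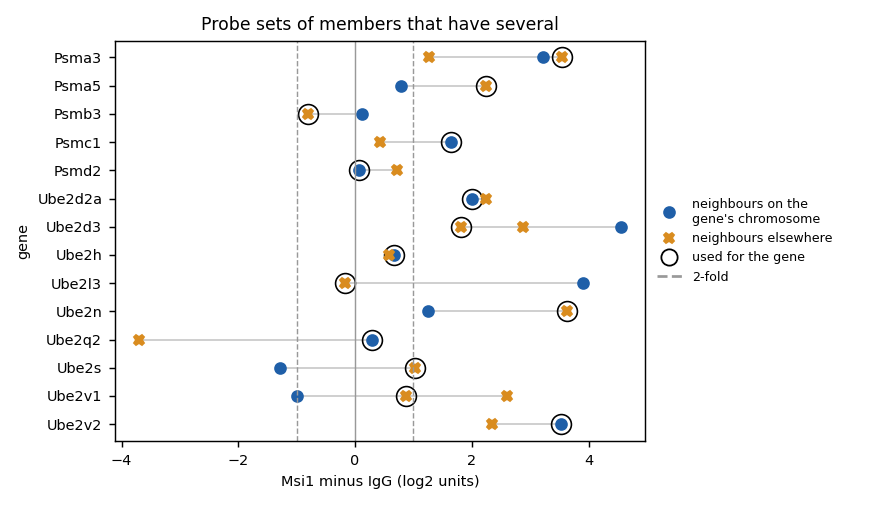
Difference between Msi1 and IgG in log2 units (horizontal axis) for each probe set of the 14 members with several, where circles are probe sets among genes of the gene's own chromosome, crosses are the others and rings mark the probe set used. The Ube2l3 probe sets lie at 3.91 and −0.17 and those of Ube2q2 at 0.29 and −3.70.

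Other genes of the ubiquitin and proteasome system, outside the symbol rule, were read in the same way. Of 54 found of 70 symbols sought, which include older names of the same genes, 51 were above the floor on Msi1 or IgG, 21 were higher in Msi1 by 2-fold or more and 1 was lower, against 18.6% and 6.91% of all genes. Of the 51, 36 were above the floor on Msi1 alone, and of the 21, 16 had IgG below its floor and 16 stayed past 2-fold from the floor. Against hnRNP 22 of 51 were higher (all genes 17.5%) and 0 lower. Against Input 6 of 53 were higher (all genes 11.8%) and 29 lower (38.3%). In hnRNP against IgG 1 of 21 was higher (all genes 6.26%) and 3 were lower (4.51%). Of 7 other proteasome components and assembly factors, 5 were higher. The lid peptide Sem1 read 7.25 in Msi1, 4.98 in hnRNP, 4.95 in IgG and 5.66 in Input, and was at least 3.95-fold higher than IgG. Uchl5, a deubiquitinase of the base, was at least 3.03-fold higher, Zfand5, which stimulates the particle, at least 3.50-fold, and the core assembly factor Pomp at least 2.38-fold, while the deubiquitinase Usp14 differed by 0.61.

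Of 5 ubiquitin-like genes 3 were higher, Sumo3 (6.85-fold), Sumo2 (4.02-fold) and Ufm1 (3.93-fold). Of 5 activating enzyme genes 2 had deposited differences past 2-fold, Uba3 and Nae1, the partners that activate NEDD8. Both were below the floor in IgG, so Uba3 is bounded at 1.41-fold, and Nae1, at 4.96 in Msi1, lay under the IgG floor and is not shown to be higher. Of 20 ligase and cullin genes 7 were higher, led by the E3 ligase Itch (at least 8.97-fold), the RING subunit gene Rnf7 (at least 3.31-fold), the scaffold Cul3 (at least 6.04-fold) and the adaptor Skp1 (at least 2.50-fold). Of 5 E2 genes with other names 2 were higher, Birc6 (at least 1.72-fold) and Tsg101 (2.00-fold), and Cdc34 differed by −0.98. Of 6 shuttling and extraction genes, Rad23b was higher (at least 3.07-fold) and Bag6 was the 1 lower gene (−1.42), with 4.75 in Msi1 and 6.16 in IgG. Nfe2l2, one of the transcription factors of proteasome genes, was at least 5.82-fold brighter in Msi1, and Nfe2l1 differed by 0.42.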

How the data were processed

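RNA of 4 groups was read on 1 Affymetrix Mouse Gene array each, with 100 ng labelled per array. The log2 values, 1 per probe set and array, are used as deposited by the authors. Per the submitters' processing notes affy was used. How signals were corrected and normalized, and the log base, were not given in the sources used here. The range of the values was taken to show base 2. Groups follow the antibody in the labels. Of 34760 probe sets, 21640 had 1 symbol, and all 85 members matched the RefSeq gene table by Entrez identifier. Floors came from 1208 receptor probe sets, and signal over the floor stands in for depth. Genes above the floor on either array were compared, and a fold whose dimmer value lay under its floor is given as a bound from that floor. Members, lists and tests were chosen with earlier results of these data known. Genes named were, for Msi1 against IgG, up to 6 past 2-fold per role and the lowest, elsewhere the 4 highest and 3 lowest of each family, and up to 4 per other list. Python 3.11.15, pandas 2.3.3, numpy 2.4.6, statsmodels 0.14.6 and matplotlib 3.10.9 were used. Alternatives covered scaling, floor, detection, threshold and choice of probe set.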

Additional observations from a re-analysis of the deposited data

Results flagged for a closer look

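Probe sets that carry 2 symbols were not used above, and 2 of them that share a member's symbol exceeded IgG by at least 2-fold in Msi1 while above the Msi1 floor. The probe set shared by Gm5801 and Ube2j2 read 6.18 in Msi1, 4.57 in hnRNP, 5.0 in IgG and 6.43 in Input, a difference of 1.19 between Msi1 and IgG. Between Msi1 and Input it differed by −0.25, against 1.13 on the probe set used for Ube2j2. One shared by Gm6098 and Ube2l3 read 5.20 in Msi1, 4.6 in hnRNP, 4.06 in IgG and 9.88 in Input, a difference of 1.14. Another shared by the same pair read 9.63 in Msi1, 9.55 in hnRNP, 9.51 in IgG and 9.94 in Input, bright on every array and nearly equal. The remaining ones with a member's symbol were not past 2-fold between Msi1 and IgG. That of Psme2b and Psme2 differed by −0.17 and that of Gm5434 and Ube2f by 0.53. The share of all probe sets with 2 symbols past 2-fold was not calculated.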

How the results depend on the processing

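Of 176 recalculated counts and medians, 143 stayed within 1.5 times the count, or, for medians, kept their sign and moved by no more than 1.5-fold in signal. No paired analysis was possible because each group had 1 array. The causes of the moves were not tested, apart from stricter or looser thresholds and floors, which change the number by construction. Detection on both arrays left 1 proteasome and 2 E2 genes higher in Msi1 than in IgG, 1 and 4 higher than in hnRNP and 0 proteasome genes higher in hnRNP than in IgG (all genes 7.87%, 6.91% and 2.07%). It turned the proteasome medians to −0.18 against IgG and −0.20 against hnRNP and the E2 median of hnRNP against IgG to −0.23. Raising the dimmer value to its floor left 7 proteasome genes higher in Msi1 than in IgG (median 0.21; all genes 10.8%), 7 higher than in hnRNP (10.9%), and 0 higher in hnRNP than in IgG. Against Input, quantile normalization gave 20 proteasome and 4 E2 genes lower in Msi1 (medians −0.58 and −0.01) and lowess centring gave 17 and 2 (medians −0.43 and 0.24), while the share of all genes lower was 18.9% and 18.8%, against 38.3% as deposited. A 1.5-fold threshold gave 16 E2 genes higher in Msi1 than in IgG (all genes 28.7%), 15 higher than in hnRNP (26.5%) and 17 lower than in Input (49.4%), and 4 proteasome and 7 E2 genes higher in hnRNP than in IgG (18.5%). A 3-fold threshold gave 11 proteasome genes higher in Msi1 than in IgG (10.2%), and 0 of either family higher in hnRNP than in IgG (0.872%). For hnRNP against IgG, quantile normalization gave 6 E2 genes higher (all genes 12.8%), the mean of probe sets 0 (5.96%), the floor at the 99th percentile 0 proteasome genes (8.09%), and no floor 2 (3.98%) with an E2 median of −0.09. The mean of probe sets turned Ube2s to −0.13 between Msi1 and IgG. Median centring moved the median of all genes between Msi1 and IgG to 0.20, against 0.06 as deposited, and lowess centring moved that between Msi1 and Input to −0.02, against −0.57. Own-chromosome probe sets, an alternative chosen after seeing the data, kept all counts within 1.5 times.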
